A study of Oryza sativa with 3 samples.

Results

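The rice miRNA families numbered MIR1846 to MIR1884 were examined in 3 small RNA libraries, 1 from each of an OsNAR2.1 overexpression line, an OsNAR2.1 RNAi line and wild-type Nipponbare. OsNAR2.1 is the partner protein that high-affinity nitrate transporters need to take up nitrate. The overexpression line (Ov199) carries a pUbi:OsNAR2.1 construct, in which a ubiquitin promoter drives the gene throughout the plant, the RNAi line carries an OsNAR2.1 RNAi construct that lowers its transcript, and Nipponbare (NP) is the non-transgenic parent. Each transgenic group is 1 line, and each library was made from pooled leaves, flowers and stems of plants grown in field plots, so no tissue can be told from another. The small RNA counts give no level of the OsNAR2.1 transcript, and the lines are taken as labelled. Members were the known precursors whose name starts with osa-MIR and whose family number lies in that range, without family MIR1862 and without MIR1876, MIR1881 and MIR1882e. They came to 61 of the 516 known precursors with a read, in 34 of 281 families. They were chosen by name and family number, but with earlier results of these data known. Level may therefore have entered through the precursors left out.

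Plant miRNAs are cut from the stem of a hairpin precursor. The canonical ones are made by DCL1, are about 21 nt long, tend to start with U and guide AGO1 to cleave or repress target transcripts. Rice also has long miRNAs of 24 nt, made by DCL3, which tend to start with A, load into AGO4-clade proteins and can direct methylation of DNA. Many of the families numbered here are known from rice and its relatives only. Such young miRNA genes are usually weakly expressed, and their hairpins often yield several overlapping products in place of 1.

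The sequences that carried these families are printed as the deposited reads gave them, 5′ to 3′, with T for U and with the seed (bases 2 to 8) in capitals. The first set holds the most read exact sequence of the 24 nt families on which the results turn, with the second start of MIR1868 and the 24 nt form of MIR1883.
MIR1868, start 44: aAGCGTGCtcacggaaaacgaggg
MIR1868, start 46: gCGTGCTCacggaaaacgagggag
MIR1883a and MIR1883b, start 27: aCCTGTGAcgggccgagaatg
MIR1883a, start 30: tGTGACGGgccgagaatggaaccc
MIR1873: aCCTCAACatggtatcagagctgg
MIR1871, 3′ arm: aTGGCTCTgatatcatgttggttt
MIR1874, 3′ arm: tATGGATGgaggtgtaacccgatg
MIR1874, 5′ arm: tAGGGCTActacaccatccataag
MIR1863a: aGTCTAATatggtatccgagctta
MIR1879: gTGTTTGGtttagggatgaggtgg
The second set holds sequences of the 21 nt families, with products of both arms for MIR1850, MIR1861h and MIR1859. The MIR1848 sequence is 24 nt long and had 3 reads, all in RNAi.
MIR1846e, 5′ arm: aACGAGGAggccgggaccaccg
MIR1850, 5′ arm, 21 nt: tGGAAAGTtgggagattgggg
MIR1850, 25 nt: gAAGTTGTgtgtgaactaaacgtgg
MIR1850, 3′ arm: cCAAATTCccaacttttcatc
MIR1861h and MIR1861j, 5′ arm: cGGTCTTGaggcaggaactgag
MIR1861h, 3′ arm: gGTTCCTGtcccaagactgag
MIR1856, 3′ arm: cGAATCCGtcggacgcatagc
MIR1859, 3′ arm: tTTCCTATgacgtccattcc
MIR1859, 5′ arm: gGAATGGAtgcgtagagaaaga
MIR1848, 3′ arm: cGCGGCCGtcgagtggctcctagg
No seed was shared between the most read sequences of the 18 families with 20 or more reads, which gave 18 different seeds. For MIR1848 this took a 15 nt sequence that tied with the printed one.

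The libraries held 94154 aligned reads in Ov199, 62724 in RNAi and 49341 in NP, each sequence counted once. Levels are given as normalized counts, the reads of a family per 1000000 aligned reads of its library, so 1 read was worth 10.6, 15.9 and 20.3 in Ov199, RNAi and NP. A library without a read of a family could still hold 3, which set floors of 31.9 in Ov199, 47.8 in RNAi and 60.8 in NP. With 1 library for each line there were no replicates, so the intervals and tests below cover counting error and compare the libraries, not the lines. PCR copies of 1 molecule could not be told from separate molecules.

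The member families were a small share of the known miRNA reads in every line. They took 1268 reads in Ov199, 855 in RNAi and 733 in NP. In Ov199 this was 1.83% of all reads at known precursors, with a 95% Wilson interval of 1.73 to 1.93%. The RNAi library gave 1.71% (1.60 to 1.83%). The NP library gave 2.06% (1.92 to 2.21%). Reads were found at 46, 51 and 52 of the 61 precursors and in 28, 32 and 29 of the 34 families in Ov199, RNAi and NP. Of the 39 family numbers in the range, MIR1867 and MIR1884 had no read. The 5 most read families held 67.8% of member reads in Ov199, 61.3% in RNAi and 62.1% in NP, and MIR1868, MIR1846, MIR1850 and MIR1873 were among the 5 in every library. At the other end, 16 families had between 1 and 17 reads over the 3 libraries and 113 reads together. In these pooled tissues, fewer cells of a type and less RNA per cell cannot be told apart. No member sequence aligned to 2 member families. Between 2.81% and 3.27% of member reads also aligned to a precursor outside the members.

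Reads of the member families fell into a 21 nt and a 24 nt class. The longer class held more reads, unlike in the conserved miRNAs, an order that reversed in exact reads without MIR1868. Reads of 24 nt made up 36.6% of member reads in Ov199, with a 95% Wilson interval of 33.99 to 39.28%. RNAi had 35.8% (32.65 to 39.06%) and NP had 36.4% (33.02 to 39.97%), so the 3 intervals overlapped. Over the 21 conserved families, such as MIR156 and MIR166, the same share was 3.42%, 4.24% and 3.46%. Reads of 20 to 22 nt were 41.0%, 42.0% and 41.9% of member reads in Ov199, RNAi and NP, against 84.2%, 83.9% and 84.5% in the conserved families. Reads of 23 to 25 nt, a window of the same width, were 49.3%, 48.0% and 48.2% of member reads, against 5.67%, 7.23% and 6.23% in the conserved families. In Ov199 the 95% Wilson interval of the longer window, 46.5 to 52.04%, lay above that of the shorter one, 38.3 to 43.7%, while in RNAi and NP the intervals of both windows overlapped. The 24 nt share rested in good part on 1 family: without MIR1868 it was 23.5% in Ov199, 21.9% in RNAi and 24.03% in NP. Over the 3 libraries together, 1206 exact member reads were 23 to 25 nt long and 1002 were 20 to 22 nt long. MIR1868 gave 497 and 10 of these, so without it the shorter window held more.

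Each family was given the class of its most common exact length, 20 to 22 nt or 23 to 25 nt, where it had at least 5 exact reads. This made 12 families 24 nt, 11 families 21 nt and 1 family (MIR1875) neither, and left 10 unclassed. Among the 18 families with 20 or more reads, 9 were 24 nt, 8 were 21 nt and MIR1880 was unclassed. MIR1868, MIR1871 and MIR1865 were nearly pure, with 97.5% of 510, 93.6% of 78 and 100% of 16 exact reads between 23 and 25 nt. MIR1873, MIR1863, MIR1879 and MIR1874 held 80.7%, 80.4%, 79.5% and 77.6% in that range. MIR1856 was the purest 21 nt family, with 94.7% of 94 exact reads between 20 and 22 nt. MIR1859 followed with 87.0% of 23 and MIR1861 with 81.1% of 164. MIR1883 belonged to both classes: 110 of its 282 exact reads were 24 nt long and 102 were 21 nt long.

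**Figure D1:**
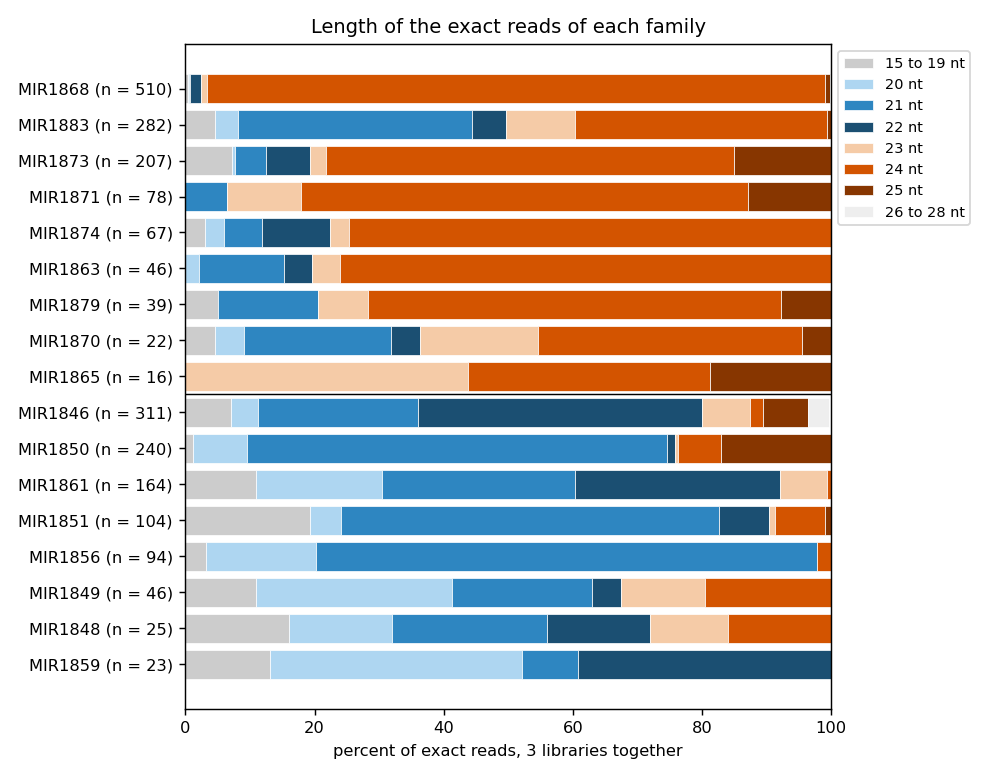
Length of the exact reads of the families with 20 or more reads and at least 5 exact ones, as a percent of each family's exact reads in the 3 libraries together, with the number of reads beside the name. The 9 families above the line are 24 nt families and the 8 below it 21 nt families. MIR1868 is almost wholly 24 nt, MIR1856 almost wholly 20 and 21 nt, and MIR1883 is split.

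In the member families, A opened a larger share of the longer reads than of the shorter ones. Among exact member reads of 23 to 25 nt, A was the first base of 45.6% in Ov199, with a 95% Wilson interval of 41.5 to 49.8%. It was the first base of 59.7% in RNAi (54.5 to 64.7%) and of 61.6% in NP (55.97 to 66.97%). Of member reads of 20 to 22 nt, 34.4%, 35.4% and 26.4% started with A and 31.9%, 23.7% and 22.9% with T in Ov199, RNAi and NP. In the conserved families T, that is U, opened 69.4%, 70.7% and 71.4% of the 20 to 22 nt reads. At 23 to 25 nt it opened 71.5%, 69.0% and 73.2%, so there the first base hardly changed with length. Over the 3 libraries together, 647 member reads of 23 to 25 nt began with A. The MIR1868 sequence with start 44 gave 305 of them. By library it gave 119 of 255 in Ov199, 103 of 209 in RNAi and 83 of 183 in NP. Without it the A share of the longer reads fell below that of the shorter ones in Ov199, but not in RNAi or NP. By family, the most read sequence began with A in 5 of the 9 24 nt families and with T in 3. It began with C in 4 of the 8 21 nt families and with T in 2. These counts go by family class and not by sequence length. The A count includes the 21 nt sequence of MIR1883, whose most read 24 nt sequence began with T. The C count includes a 15 nt sequence of MIR1848.

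Both arms of most hairpins were sampled, and 1 arm usually held most reads. A read was placed on the 5′ or 3′ arm by whether its midpoint lay before or after the middle of the aligned part of the precursor (0.5 of the last aligned position), since the precursor lengths were not in the files. The 5′ arm was the main one in 10 of the 18 families with 20 or more reads and the 3′ arm in 8. MIR1868, MIR1873 and MIR1883a were 5′ precursors, with 98.6%, 96.1% and 95.2% of exact reads on that arm, and MIR1846e followed with 90.6%. MIR1879, MIR1856 and MIR1874 were 3′ precursors, with 92.3%, 89.4% and 88.1% on the 3′ arm. MIR1849 was split, with 24 reads on the 5′ and 22 on the 3′ arm. The most read products of the 2 arms were complementary over unbroken runs of 17 letters in MIR1873, 13 in MIR1868 and 12 in MIR1846e. Runs of 11 were found in MIR1883a and MIR1849, of 10 in MIR1850 and MIR1856, and of 9 in MIR1874 and MIR1865. The less read product had only 2 reads in MIR1868, 3 in MIR1883a, 4 in MIR1865 and 5 in MIR1873. In MIR1851 the longest run was 3, and its 104 exact reads began at 23 positions over a span that reached position 470, with no more than 23.1% at 1 start.

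Among the 24 nt families, MIR1868 was the most read family of the set. It had 244, 178 and 138 reads in Ov199, RNAi and NP, or normalized counts of 2592, 2838 and 2797. The level was close in the 3 libraries, with a ratio of Ov199 to NP of 0.93 (95% counting interval 0.75 to 1.15) and of RNAi to NP of 1.01 (0.81 to 1.28). Most of these reads came from 2 starts that lie 2 nt apart. The 24 nt reads starting at position 44 numbered 119, 104 and 83 in Ov199, RNAi and NP, and those starting at position 46 numbered 80, 44 and 26. The share of the first start was thus 59.8% in Ov199 (95% Wilson interval 52.9 to 66.4%). It was 70.3% in RNAi (62.5 to 77.0%) and reached 76.1% in NP (67.3 to 83.2%). The intervals of Ov199 and NP did not overlap. The shift moves the seed by 2 bases, as the 2 printed MIR1868 sequences show. The pair was singled out after its values were seen.

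MIR1883 was the member family that stood apart in Ov199. It had 220 reads in Ov199, 57 in RNAi and 56 in NP, or normalized counts of 2337, 909 and 1135. Its level in Ov199 was 2.05 times that in NP (normalized counts + 10), and the ratio of read rates was 2.06 (95% counting interval 1.53 to 2.81), with an adjusted p of 4.4e-06 in Fisher's exact test (two-sided, Benjamini-Hochberg over the 260 known families tested). In RNAi it was 0.39 of the level in Ov199, with a ratio interval of 0.29 to 0.52 and Fisher's exact test gave an adjusted p of 1.24e-10. RNAi and NP differed by less than counting error (ratio 0.80, interval 0.54 to 1.18).

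The added MIR1883 reads of Ov199 were not spread evenly over its sequences. In the 3 libraries together, 90.0% of the 271 exact reads at MIR1883a began at 1 of 8 adjacent positions, 26 to 33. That share does not describe the added reads of Ov199 alone. The 21 nt sequence with start 27, which MIR1883a and MIR1883b share, had 41, 14 and 11 reads in Ov199, RNAi and NP. The 24 nt sequence with start 30, found at MIR1883a alone, had 27, 3 and 4 reads, and its 23 nt form had 22, 0 and 2. A 21 nt sequence with start 32 had 21, 1 and 0 reads. In contrast, the 24 nt sequence with start 27 had 11, 11 and 4 reads. Exact reads that aligned to MIR1883a only were 58.6% of 186 in Ov199 (95% Wilson interval 51.4 to 65.4%), 22.4% of 49 in RNAi (13.0 to 35.9%) and 38.9% of 36 in NP (24.8 to 55.1%), the rest aligning to both precursors. Reads of MIR1883b alone numbered 6, 0 and 5. These starts were chosen after their values were seen.

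MIR1873, a miRNA known in rice for lowering blast resistance, had 109, 80 and 68 reads in Ov199, RNAi and NP, or normalized counts of 1158, 1275 and 1378. Its 24 nt sequence had 35, 32 and 30 of those reads. The ratio of Ov199 to NP was 0.84 (0.61 to 1.15) and that of RNAi to NP 0.93 (0.66 to 1.298), so no difference was detectable at this depth. MIR1871, also linked to blast resistance in rice, had 30, 37 and 25 reads, or normalized counts of 319, 590 and 507. Its level in RNAi was 1.83 times that in Ov199, with a ratio interval of 1.11 to 3.10 and an adjusted p of 0.065 in Fisher's exact test. It therefore missed the threshold of 0.05, which it passed among families of 10 or more reads (Fisher's exact test, adjusted p = 0.036).

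MIR1874 had 48, 17 and 14 reads in Ov199, RNAi and NP, or normalized counts of 509.8, 271 and 284. Its 24 nt sequence of the 3′ arm had 27, 8 and 6 reads, while the 24 nt sequence of the 5′ arm had 3, 1 and 4. Ov199 stood at 1.77 times NP, with a ratio interval of 0.97 to 3.53, and RNAi at 0.54 of Ov199, with an interval of 0.29 to 0.94 and an adjusted p of 0.11. MIR1863 had 28, 22 and 17 reads, or normalized counts of 297, 351 and 345, and all 3 ratios had intervals that held 1. MIR1879 had 10, 17 and 16 reads, or normalized counts of 106, 271 and 324. It was lower in Ov199, at 0.35 of NP, with a ratio interval of 0.13 to 0.77 and an adjusted p of 0.035 in Fisher's exact test. Of 7 other ways of counting or scaling, 5 took this adjusted p past 0.05, up to 0.104. MIR1870 had 7, 11 and 9 reads and MIR1865 had 10, 9 and 2 reads. Their folds of Ov199 over NP were 0.44 and 2.30, past the 2-fold limit, with adjusted p of 0.32 and 0.54. With only 2 reads in NP, the ratio of MIR1865 had a counting interval of 0.56 to 24.6 for Ov199 and of 0.73 to 33.7 for RNAi.

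**Figure D2:**
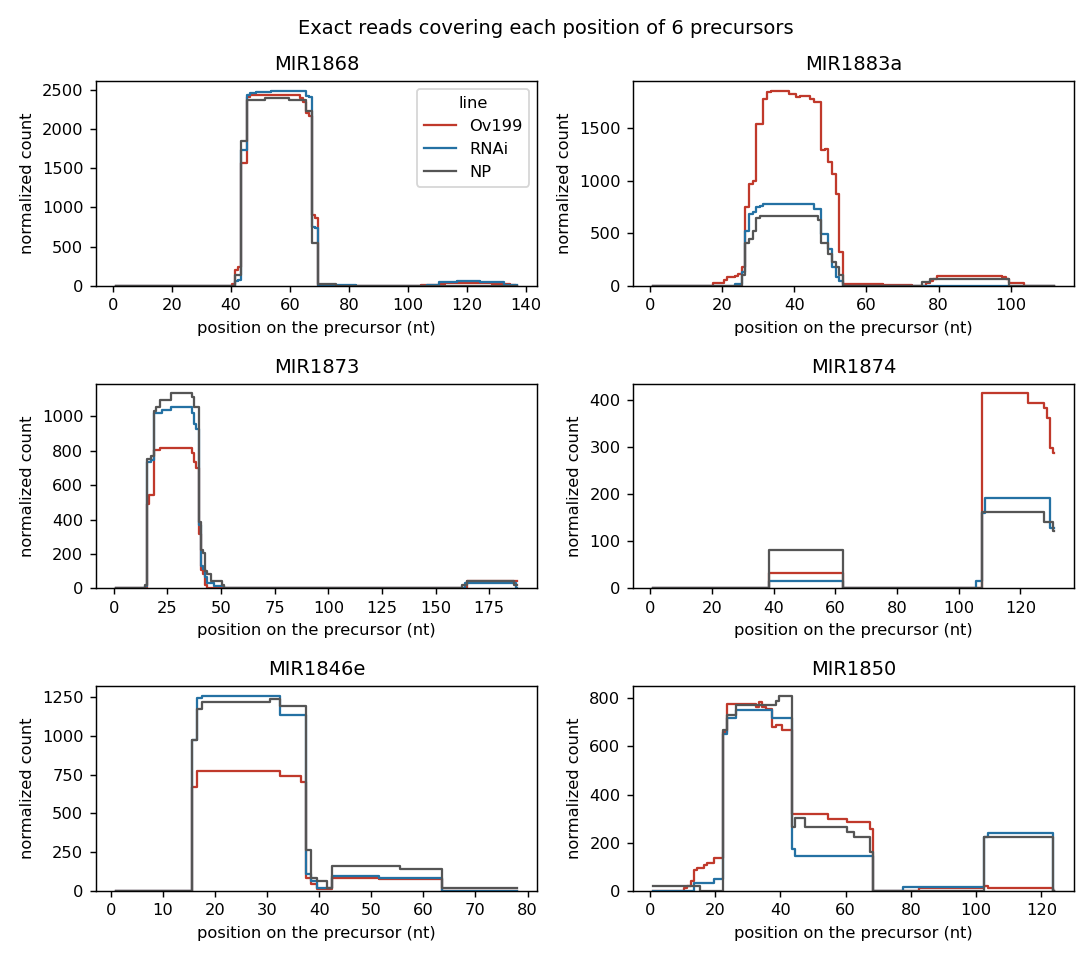
Exact reads covering each position of 6 precursors, as normalized counts (reads per 1000000 aligned reads, linear axes that start at 0) against the position on the precursor in nt, with 1 line each for Ov199, RNAi and NP. The 3 lines lie together at MIR1868, Ov199 stands above the others at MIR1883a and on the 3′ arm of MIR1874, and Ov199 is near 0 on the 3′ arm of MIR1850, where RNAi and NP have a second peak.

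Among the 21 nt families, MIR1846 led with 149, 109 and 94 reads in Ov199, RNAi and NP, or normalized counts of 1583, 1738 and 1905. The ratio of Ov199 to NP was 0.83 (0.64 to 1.09) and that of RNAi to NP 0.91 (0.69 to 1.22). Its precursors did not share this evenly. MIR1846e had 98, 89 and 72 reads, or normalized counts of 1041, 1419 and 1459, of which the 22 nt sequence of the 5′ arm had 49, 49 and 35. MIR1846a had 41, 13 and 14 reads, or 435, 207 and 284, and 66 of these 68 reads also aligned to MIR1846b or another known precursor. By these values MIR1846e was lowest in Ov199 and MIR1846a highest there, but no interval or test is given for single precursors.

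MIR1850 made 3 main products, and 1 of them was nearly missing from Ov199. It had 138, 98 and 87 reads in Ov199, RNAi and NP, or normalized counts of 1466, 1562 and 1763, with a ratio of Ov199 to NP of 0.83 (0.63 to 1.10). The 21 nt sequence at positions 23 to 43 had 49, 38 and 33 reads. The 25 nt sequence that begins at the next position, 44, had 24, 8 and 6 reads. The 21 nt sequence of the 3′ arm, at positions 103 to 123, had 1, 14 and 11 reads. The family as a whole was therefore level while its arms were not. On the 5′ and 3′ arms together, the 3′ arm held 2 of 105 exact reads in Ov199 (1.90%), 16 of 72 in RNAi (22.2%) and 11 of 63 in NP (17.5%). Fisher's exact test on the arms, adjusted over all known precursors, gave p = 0.0071 between Ov199 and NP, 4.0e-04 between RNAi and Ov199 and 0.83 between RNAi and NP.

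MIR1850 also had a recurring end variant. In all, 70 of its 83 reads with a mismatch or gap were 22 nt long, started at position 22 and differed from the precursor at their first base alone, with A1T in 37 and A1G in 33 (the precursor's base, the position counted from 1 at the 5′ end of the read, the base of the read). Every one of these reads continued with the printed 21 nt sequence. They numbered 27, 24 and 19 in Ov199, RNAi and NP. Over all member families, 151 of 508 reads with a mismatch or gap differed at the first base alone, so MIR1850 gave 70 of the 151.

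MIR1861, the family with the most precursors (15 with a read), was lower in RNAi. It had 83, 36 and 68 reads in Ov199, RNAi and NP, or normalized counts of 882, 574 and 1378. RNAi stood at 0.42 of NP, with a ratio interval of 0.27 to 0.63 and an adjusted p of 2.5e-04 in Fisher's exact test. Ov199 stood at 0.64 of NP (interval 0.46 to 0.89), inside the 2-fold limit. Its adjusted p in Fisher's exact test was 0.041, a call lost with adapter-trimmed reads, TMM factors or DESeq2 size factors as the library total and with exact matches only. Most reads were at MIR1861h and MIR1861j, which share the printed 5′ sequence and cannot be told apart there. That 22 nt sequence had 15, 12 and 19 reads. The 3′ arm of MIR1861h had 20, 2 and 9 exact reads, beside 49, 26 and 46 on its 5′ arm, and no arm test of MIR1861h passed after adjustment (Fisher's exact p of 0.36 between Ov199 and NP, 0.64 between RNAi and NP and 0.16 between RNAi and Ov199).

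MIR1851 had 59, 59 and 25 reads in Ov199, RNAi and NP, or normalized counts of 627, 941 and 507. RNAi stood at 1.84 times NP, with a ratio interval of 1.14 to 3.09 and an adjusted p of 0.077 in Fisher's exact test. MIR1856 had 35, 40 and 27 reads, or 372, 638 and 547, and its 3′ sequence had 21, 21 and 17 of them. RNAi stood at 1.70 times Ov199 (interval 1.06 to 2.78, exact test adjusted p = 0.11). MIR1849 had 30, 24 and 22 reads, or 319, 383 and 446, and its most read sequence had 7 of 46 exact reads. None of these 3 families passed the test in any comparison over all known families. Among families of 10 or more reads, MIR1851 passed in RNAi against NP (Fisher's exact test, adjusted p = 0.035).

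MIR1848, whose miRNA targets a sterol demethylase gene of the CYP51 family in rice, was low in Ov199. It had 5, 17 and 11 reads in Ov199, RNAi and NP, or normalized counts of 53.1, 271 and 223. The level in Ov199 was 0.27 of that in NP, with a ratio of read rates of 0.24 (interval 0.065 to 0.74) and an adjusted p of 0.036 in Fisher's exact test. Of 7 other ways of counting or scaling, 5 took that p past 0.05, up to 0.64 with exact matches only, and the fold lay between 0.16 and 0.47. The level in RNAi was 4.45 times that in Ov199 (ratio 5.10, interval 1.81 to 17.7, exact test adjusted p = 0.0044), and this call held under all 7, with a fold of 3.77 to 8.995. RNAi and NP did not differ beyond counting error, with a ratio of 1.22 (0.54 to 2.87). The arms differed too: the 3′ arm held 0 of 4 exact reads in Ov199, which allows a share of up to 75.0%, 14 of 16 in RNAi and 1 of 5 in NP. The arm test gave an adjusted p of 0.039 for RNAi against Ov199 and 0.11 for RNAi against NP. Its reads were scattered, and the most read sequences were 3 that tied at 3 reads each, 1 of which is printed.

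The reads of MIR1859 came from different arms in different libraries. It had 12, 4 and 9 reads in Ov199, RNAi and NP, or normalized counts of 127, 63.8 and 182. The 20 nt sequence of the 3′ arm had 7, 2 and 0 reads and the 22 nt sequence of the 5′ arm had 0, 0 and 7. Over all exact reads the 5′ arm held 0 of 11 in Ov199, which allows a share of up to 27.3%, and 7 of 9 in NP. Fisher's exact test on the arms gave an adjusted p of 0.0071 for this pair. RNAi had too few reads for the arm test. MIR1880 had 8, 8 and 7 reads, of which 4 of 23 were exact, so nearly all of its reads carried a mismatch or gap.

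**Figure D3:**
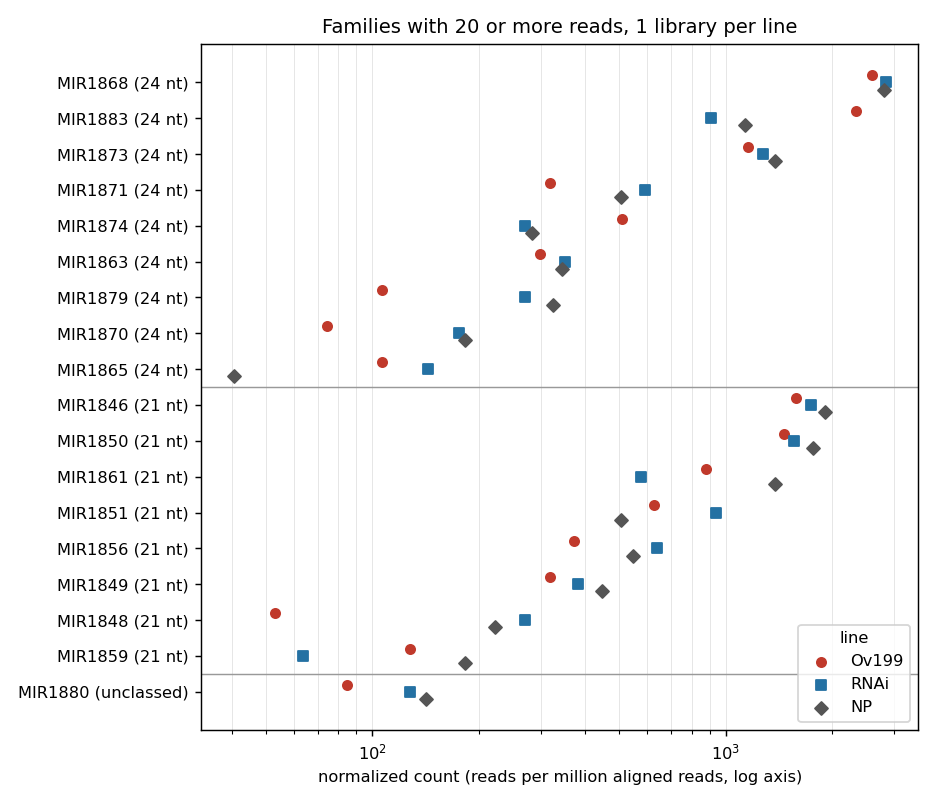
Normalized count (reads per 1000000 aligned reads, log axis) of the 18 families with 20 or more reads in Ov199, RNAi and NP, 1 library each, in 24 nt, 21 nt and unclassed blocks ordered by reads. The 3 points lie close together for MIR1868, MIR1873, MIR1846 and MIR1850, Ov199 is far right at MIR1883 and far left at MIR1848 and MIR1879, and RNAi is left at MIR1861.

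The comparison of Ov199 with NP set the library of the overexpression line beside that of the wild type. With 1 library each, an effect of OsNAR2.1 cannot be told apart from other differences between the libraries. Of 31 member families with a read in either library, 5 were at least 2-fold higher in Ov199 and 9 at least 2-fold lower, beside 22.7% of all 260 known families in each direction. In 9 of these 14, neither library reached 10 reads. In Fisher's exact test 6 members had an adjusted p under 0.05, 1 higher and 5 lower, beside 19.2% of all known families. MIR1883 was the 1 that was higher, and MIR1848, MIR1861, MIR1877, MIR1879 and MIR1882 were lower. The lower calls depended on the counting: 1 of them was left with adapter-trimmed reads, 2 with TMM factors, DESeq2 size factors or 20 to 24 nt reads, and 0 with exact matches only, while MIR1883 passed Fisher's exact test in each of these. The median fold was 0.83 over the members and 0.95 over all known families.

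The calls of MIR1877 and MIR1882 rested on few reads. MIR1877 had 0, 2 and 6 reads in Ov199, RNAi and NP. With 0 taken as 3 reads, Ov199 was 3.82-fold lower than NP, a value that leaves out the counting error of NP. The ratio of Ov199 to NP had a counting interval of 0 to 0.445. Only 1 of its 8 reads was exact. MIR1882 had 0, 2 and 5 reads, which by the same rule put Ov199 3.18-fold lower, with a ratio interval of 0 to 0.572. Of its 7 reads, 6 also aligned to MIR1882e, which is not among the members, so this call cannot be told apart from that precursor. Families without a read were MIR1853, MIR1855, MIR1858, MIR1860, MIR1877 and MIR1882 in Ov199, MIR1866 and MIR1872 in RNAi, and MIR1853, MIR1854, MIR1855, MIR1858 and MIR1866 in NP. Ov199, the deepest library, had the most such families among the members, with reads in 28 of 34. Over all 281 known families it had the fewest, with 231 read in Ov199, 230 in RNAi and 224 in NP.

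The comparison of RNAi with NP set the library of the RNAi line beside that of the wild type, with the same limit. Of 33 member families, 6 were at least 2-fold higher in RNAi and 8 lower, beside 22.7% and 18.4% of the 256 known families tested. Neither library reached 10 reads in 13 of those 14. The other, MIR1861, was also the only member with an adjusted p under 0.05, beside 9.77% of all known families. The median fold was 0.91 over the members and 1.06 over all known families. A member share below the background is a count from 33 families, and no test of the shares was made.

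Between the transgenic lines, 11 of 34 member families were at least 2-fold higher in RNAi than in Ov199 and 5 lower, beside 27.9% and 21.1% of the 265 known families tested. Neither library reached 10 reads in 10 of these 16. MIR1848, higher in RNAi, and MIR1883, lower in RNAi, had an adjusted p under 0.05, beside 17.7% of all known families. The median fold was 1.26 over the members and 1.10 over all known families. The comparisons share libraries, so a low value in Ov199 enters both of those it takes part in.

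Summed over a class, the 21 nt families were lower in Ov199 than in NP per aligned read, whereas no difference of the 24 nt families exceeded counting error. Both statements changed with adapter-trimmed reads as the library total, and that on the 24 nt families also with TMM factors. The 12 24 nt families had normalized counts of 7605, 6951 and 7114 in Ov199, RNAi and NP, with a ratio of Ov199 to NP of 1.07 (95% counting interval 0.94 to 1.22). With adapter-trimmed reads as the total the 24 nt ratio was 1.27 (1.11 to 1.44). Without MIR1883 the ratio per aligned read was 0.88 (0.76 to 1.02). The 11 21 nt families had 5512, 6266 and 7235, with a ratio of Ov199 to NP of 0.76 (0.66 to 0.87) and of RNAi to NP of 0.87 (0.75 to 1.002). With adapter-trimmed reads the 21 nt ratio of Ov199 to NP was 0.90 (0.79 to 1.04), an interval that held 1. Of the 8 21 nt families with 20 or more reads, 7 had a fold of Ov199 over NP below 1, and 2 of the 8 (MIR1848 and MIR1861) passed the test. Of the 9 24 nt families with 20 or more reads, 6 had a fold below 1. In that class 2 passed, MIR1883 (higher in Ov199) and MIR1879 (lower). The counts by family therefore hardly separated the classes. These sums and their other totals were chosen after the family values were known.

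**Figure D4:**
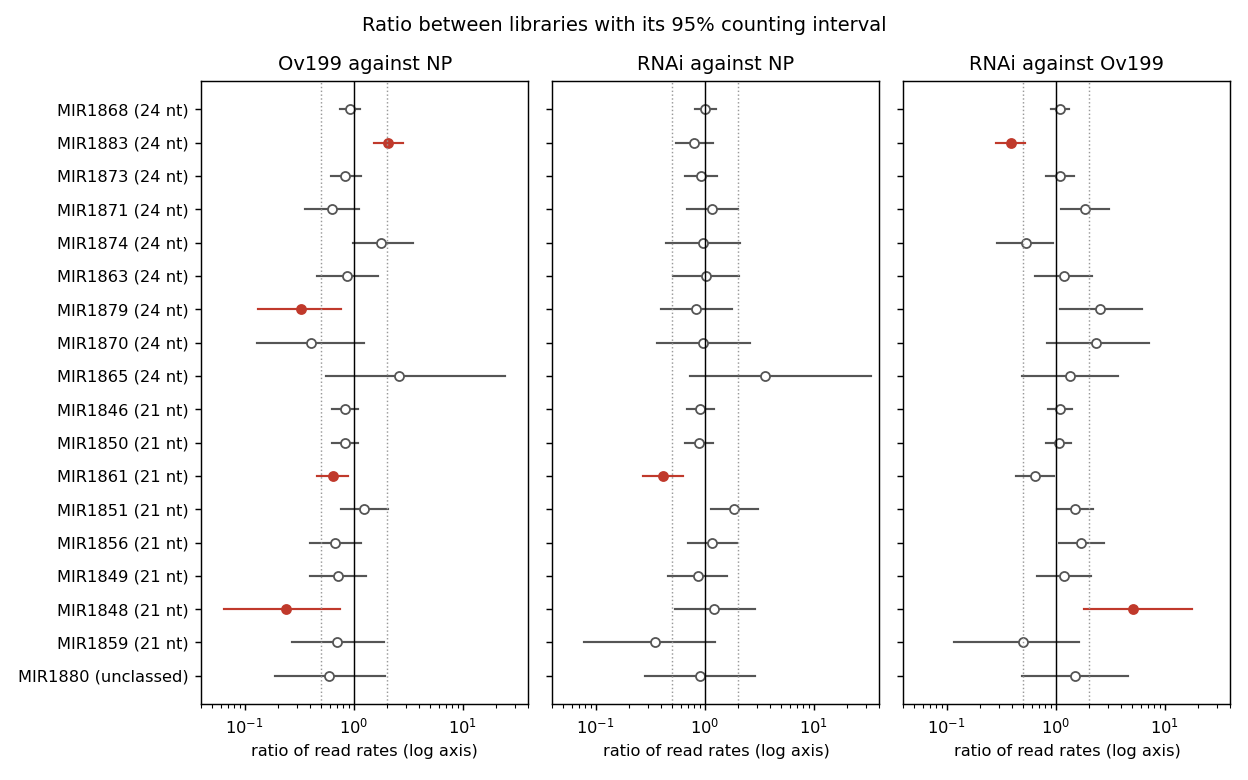
Ratio of read rates between libraries (log axis) with its 95% counting interval for the 18 families with 20 or more reads in each of the 3 comparisons, the first-named line over the second. Filled red points have an adjusted p under 0.05, open points do not, and dotted lines mark 0.5 and 2. The filled points are MIR1883, MIR1879, MIR1861 and MIR1848 in Ov199 against NP, MIR1861 in RNAi against NP, and MIR1883 and MIR1848 in RNAi against Ov199.

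Arms were tested in the same way over every known precursor with at least 20 reads, of which at least 5 on the lesser arm. Of 13 member precursors tested between Ov199 and NP, 2 passed (MIR1850 and MIR1859), beside 8.94% of the 123 known precursors. Of 10 tested between RNAi and NP, 0 passed Fisher's exact test after adjustment, beside 7.48% of 107, and 2 had an unadjusted p under 0.05. Of 12 tested between RNAi and Ov199, 2 passed (MIR1848 and MIR1850), beside 12.0% of 125.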

How the data were processed

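Small RNAs of 3 rice lines were sequenced on an Illumina HiSeq, and the authors deposited for each library the raw read count of every distinct sequence of 15 to 36 nt that aligned to a known or predicted precursor, with its position and at most 1 mismatch or gap, without normalization. The aligner's settings and the precursor release are not given in the sources used here. The members and lists were chosen with earlier results of these data known.

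Counts were summed per family and precursor, each sequence once, and divided by the aligned reads of the library (49341 to 94154). Folds were taken on the normalized count + 10, and 2-fold was the limit. Two-sided Fisher's exact tests compared the read counts, adjusted by Benjamini-Hochberg over every known family, and ratios carry an exact 95% counting interval. Families with 20 or more reads were described singly, others were named only if past both limits, and features named outside this rule are said to be chosen after their values were seen. Sequences are those of the deposited reads. A further read sequence is not reported here. Genomic positions are not given here because no rice genome was used. The family test was tested on simulated counts. Alternatives were other library totals (among them edgeR 4.0.16 TMM and DESeq2 1.42.0 size factors), pseudocounts and filters. Python 3.11.15, scipy 1.17.1 and R 4.3.3 were used.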

Additional observations from a re-analysis of the deposited data

How the results depend on the processing

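The calls of MIR1883 in Ov199 against NP (fold 2.02 to 2.44) and in RNAi against Ov199 (0.32 to 0.40), of MIR1861 in RNAi against NP (0.39 to 0.45) and of MIR1848 in RNAi against Ov199 (3.77 to 8.995) held under 7 alternatives each: 4 library totals, exact matches, 20 to 24 nt reads and reads of 1 family only. MIR1848 and MIR1879 in Ov199 against NP each lost theirs under 5 of 7, and MIR1882 under 3 of 6. MIR1877 has no value with exact matches only, nor MIR1882 without shared reads. Pseudocounts were not among these alternatives. With a pseudocount of 100, 0 members were at least 2-fold higher in Ov199 than in NP, so MIR1883 fell inside the 2-fold limit.

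Families past 2-fold numbered 14 (Ov199 against NP), 14 (RNAi against NP) and 16 (RNAi against Ov199). In that order, with a pseudocount of 100 they were 4, 1 and 2, with families of 10 or more reads only 5, 1 and 6, and over precursors 29, 29 and 34, where shared reads are counted at each precursor. Exact matches only gave 9 in Ov199 against NP. Families with an adjusted p under 0.05 in Fisher's exact test in Ov199 against NP were 6, but 2 with adapter-trimmed reads as the total, 3 with TMM factors, 3 with DESeq2 size factors, 1 with exact matches, 3 with 20 to 24 nt reads and 11 over precursors. In RNAi against NP the 1 call became 2 with families of 10 or more reads, where MIR1851 was added, and 2 over precursors. In RNAi against Ov199 the 2 calls became 4 with adapter-trimmed reads and 4 with DESeq2 size factors, which added MIR1861 and MIR1874, both lower in RNAi, and 3 with families of 10 or more reads, which added MIR1871, higher in RNAi.

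The 24 nt share with exact matches only was 41.0% in Ov199, 41.1% in RNAi and 42.5% in NP. Without sequences of 1 read it was 39.4% in Ov199 and 40.4% in NP, and without MIR1868 it was 23.5%, 21.9% and 24.03% in Ov199, RNAi and NP. The share of known-precursor reads was 1.65%, 1.53% and 1.79% without sequences of 1 read and 1.48%, 1.36% and 1.68% without MIR1868. Chosen after seeing the data, TMM and DESeq2 totals gave ratios of Ov199 to NP of 1.17 and 1.14 for the summed 24 nt families (lower bounds 1.03 and 0.9998) and of 0.83 and 0.81 for the 21 nt families (upper bounds 0.95 and 0.93). No paired analysis was possible because each line had 1 library. Depth limits the rest: in NP 1 read is worth 20.3, so families under 10 reads can pass 2-fold by 1 or 2 reads.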

Other observations

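Some 24 nt families shared sequence although none shared a seed. The most read MIR1873 sequence (aCCTCAACatggtatcagagctgg) and a minor 3′ read of MIR1863a (aGCTCTGAtaccatgttagattag, 4 reads) were reverse complements over 17 letters, aacatggtatcagagct. A MIR1871 5′ read (aAATCTAAcatggtatcggatcca, 9 reads), had 11 letters in common with MIR1873 on the same strand. The stretch tggtatcagagc inside this run is, as background, the start of the primer binding site of many plant LTR retrotransposons, which pairs with the initiator methionine tRNA. These families were searched for it after their reads were seen, and their origin was not tested.

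Reads with 1 mismatch at an end were common in some families. At the last base alone they were 11 of 14 inexact reads in MIR1871 and 14 of 21 in MIR1863, against 6 of 83 in MIR1850, where 70 differed at the first base alone. MIR1869 (11, 2 and 1 reads in Ov199, RNAi and NP) had 1 exact read of 14 and is named after its values were seen.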
